A study of Mus musculus with 90 samples.

Results

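The libraries described here come from 1 line of mouse embryonic stem (ES) cells, named CBX7-CaPS-R, taken on day 8 and on day 0 of a neural differentiation. They are 6 of the 90 libraries of the series, 3 for each day. They were picked by the line, course and day in their labels, with no measured value, and were compared within the count table that holds them. Earlier results of these data were known when the libraries and the gene lists were chosen. The parent cells are J1 mouse ES cells, and both days carry the same CBX7-CaPS-R genotype. CBX7 is a chromobox subunit of Polycomb repressive complex 1 (PRC1). What CaPS-R stands for, how the line was made and whether it is 1 clone are not given in the sources used here. Cells of day 8 are labelled neural progenitors: ES cells freed of feeder fibroblasts were aggregated for 4 days without LIF, the cytokine that holds mouse ES cells undifferentiated, and then kept in 5 uM retinoic acid. Cells of day 0 are the ES cells before aggregation, also freed of feeders. The 3 libraries of day 6 of the same course, when cells are also labelled neural progenitors, are given for order and bring the course to 9 libraries. Libraries were made from total RNA after removal of ribosomal RNA.

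Pluripotent cells are held by a network of transcription factors around Oct4 (gene Pou5f1), Nanog and Sox2, and differentiation begins when that network is switched off. Retinoic acid enters the nucleus and binds retinoic acid receptors, which sit with RXR partners on DNA and activate target genes, among them the Hox genes that set position along the body axis. In neural precursors it favours hindbrain and spinal cord over forebrain. Polycomb complexes act on the same genes: PRC2 methylates histone H3 at silent developmental genes, and chromobox proteins such as CBX7 bring PRC1 to that mark.

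Library totals were 11.7 M, 21.5 M and 29.1 M counts on day 8 and 28.9 M, 23.0 M and 20.5 M on day 0. Rn45s, the ribosomal precursor, made up 27.8% to 30.6% of the counts on day 8 and 41.9% to 69.3% on day 0, so the groups did not overlap in it. It was left out, after which 8.12 M to 21.0 M counts remained per library on day 8 and 6.29 M to 16.8 M on day 0. Of these remaining counts, Lars2 made up 0.0553%, 0.256% and 0.0965% on day 8 and 0.0703%, 4.31% and 10.3% on day 0. Lars2 was kept in the main comparison. Levels are CPM, the counts of a gene per 1 M counts of its library, after TMM scaling, which corrects for differences in composition between libraries. No pair of libraries differed by as little as sampling noise. The labels do not say whether libraries of a day come from separate cultures, so p-values measure the spread between these libraries, which may be technical. The gene Cbx7 itself was not analysed here, so the line's label was not checked against it.

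Day 8 and day 0 cells differed at 48.0% of the genes tested. Of 12705 genes tested with edgeR's quasi-likelihood test, 3196 (25.2%) were higher on day 8 and 2902 (22.8%) were lower at a Benjamini-Hochberg adjusted p below 0.05, the threshold for every gene said to be called, to rise or to fall below. Changes are log2 ratios of day 8 to day 0. They had a median of 0.029 over all genes tested, of 1.97 over the genes that rose and of -1.33 over those that fell, and 971 called genes rose and 559 fell by at least 3. The CPM of the 3 day 8 libraries lay wholly above or wholly below those of the 3 day 0 libraries for 8268 genes (65.1%). Where genes below are said to lack overlap between the days, that stands against this share and adds no test to their calls. Day 6 means lay between both days for 76.6% of the genes that rose and 79.7% of those that fell. They lay above day 8 for 20.9% of the genes that rose and below it for 17.8% of those that fell. With library totals in place of TMM scaling, 3715 genes rose and 2024 fell, which moves the share of rises among calls to 64.73%, against 52.41%, and shifts the median of all genes by 0.246. On the first principal component of all genes, which held 63.3% of the variance, day 8 libraries lay at 84.3 to 86.9, day 6 libraries at 43.4 to 46.9 and day 0 libraries at -135 to -124. Each change below is measured in bulk RNA, in which fewer cells of a type and less RNA per cell cannot be told apart. Counts of list members below stand against the shares of all genes, 25.2% higher and 22.8% lower. A count near these shares does not set a list apart. Some lists share genes, which count in each of them.

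**Figure D1:**
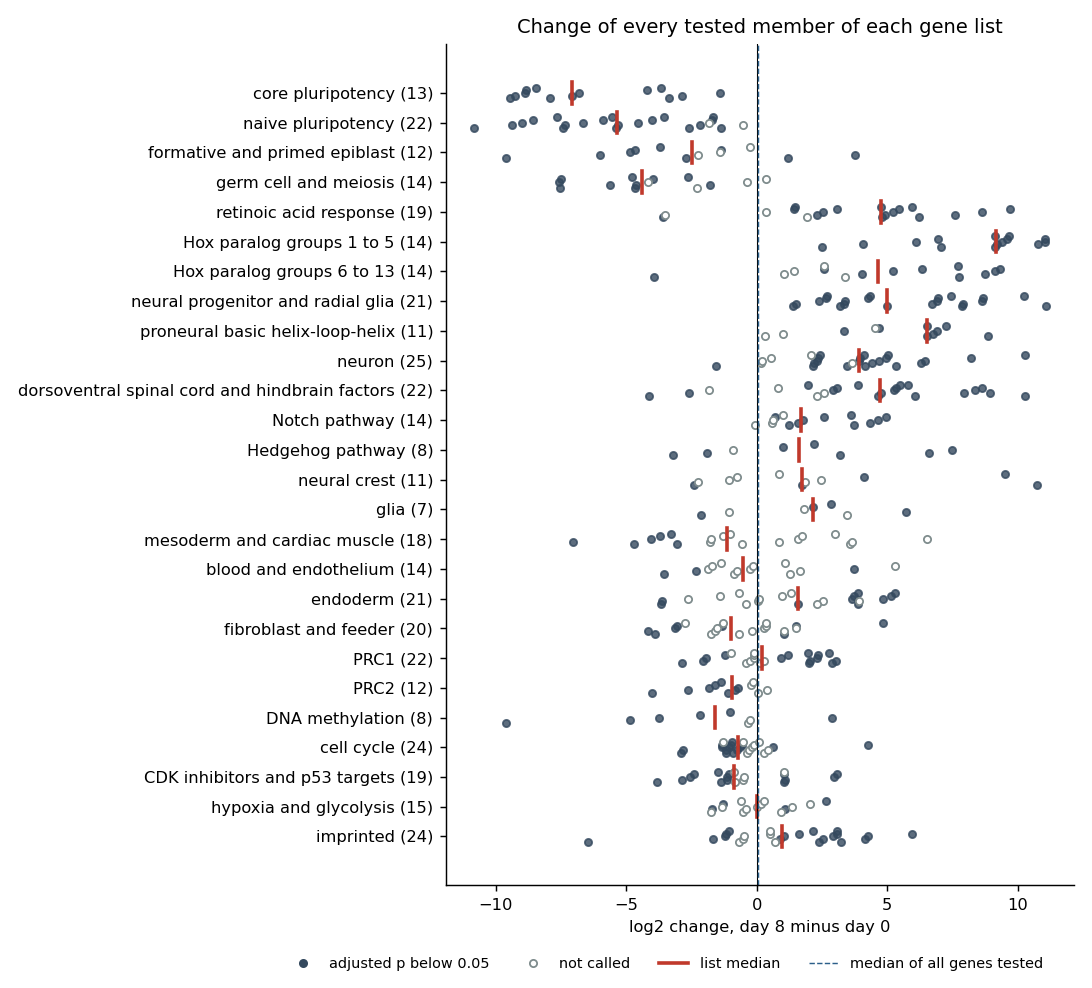
Log2 change from day 0 to day 8 (horizontal axis, day 8 minus day 0) of each tested member of 26 gene lists, with the number tested in parentheses. Filled points are called and open points are not, red bars are list medians, and the dashed line is the median of all genes tested (0.029). Members with 0 counts over 1 of the days are drawn at their bound. All 13 core pluripotency genes lie left of 0 and all 14 Hox genes of groups 1 to 5 lie right of it.

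Pluripotency genes fell together. All 13 core pluripotency genes tested fell, with a median of -7.10, and 20 of 22 naive pluripotency genes fell, with a median of -5.37. Pou5f1, which encodes Oct4 (chr17:35506032-35510777, mm10), stood at 4.44, 5.81 and 1.69 CPM on day 8 and at 1927, 1722 and 1682 CPM on day 0, a log2 change, with its standard error (SE), of -8.83 ± 0.57 SE, adjusted p = 1.4e-06. Nanog held 1.06, 1.1 and 0.356 CPM on day 8 and 237, 201 and 143 CPM on day 0, a change of -7.93 ± 0.65 SE, adjusted p = 6.3e-06. No day 8 library came near any day 0 library for either gene. The 250 bases before the RefSeq start of Nanog (chr6:122707239-122707488, plus strand, GRCm38.p6) are shown because they hold the composite Oct-Sox motif, to which Oct4 and Sox2 bind side by side. It lies 75 to 62 bases before the start, on the opposite strand, and is given in capitals.
Nanog: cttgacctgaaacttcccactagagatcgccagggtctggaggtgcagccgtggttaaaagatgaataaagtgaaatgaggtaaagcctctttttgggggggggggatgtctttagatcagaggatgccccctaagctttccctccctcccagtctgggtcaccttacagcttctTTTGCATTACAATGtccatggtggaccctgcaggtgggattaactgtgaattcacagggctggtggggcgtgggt
The motif was found on either strand in 9 of 32851 promoter windows of this length (0.0274%), in 1 of the 12 core genes and in 0 of the 15 naive genes that have a window. Of the windows that hold it, 6 belong to tested genes, of which 3 rose, 2 fell and 1 was not called. Tdgf1, a Nodal co-receptor of the undifferentiated epiblast, had 2.32, 1.22 and 1.07 CPM on day 8 against 704, 1025 and 967 CPM on day 0 (-9.27 ± 0.33 SE, adjusted p = 2.8e-08). Zfp42, the ES cell marker Rex1, had 0.845, 0.978 and 0.267 CPM on day 8 against 641, 349 and 403 CPM on day 0 (-9.47 ± 0.61 SE, adjusted p = 1.2e-06). These core genes were already low on day 6, when Pou5f1 had 15.2, 25.9 and 7.74 CPM and Tdgf1 had 2.83, 3.29 and 2.38 CPM.

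Sox2, which acts with Oct4 in ES cells and also maintains neural progenitors, had a smaller change than its partners. Its level was 223, 326 and 283 CPM on day 8 and 707, 739 and 767 CPM on day 0, a change of -1.41 ± 0.22 SE, adjusted p = 0.00028, and the lowest day 8 library still held 223 CPM. Lin28a, an RNA-binding protein that blocks let-7 maturation, fell late: it had 959 ± 116 CPM on day 0, 425 ± 13.5 on day 6 and 52.1 ± 0.794 on day 8 (mean ± SD, n = 3 each), a change from day 0 to day 8 of -4.2 ± 0.17 SE, adjusted p = 4e-08. Among naive genes, Fgf4, the growth factor through which ES cells leave the naive state, had 0.634, 0.367 and 0.178 CPM on day 8 against 253, 267 and 197 CPM on day 0 (-9.4 ± 0.40 SE, adjusted p = 4.2e-08). Dppa5a had 0.634, 0.611 and 0.089 CPM on day 8 against 267, 172 and 172 CPM on day 0 (-8.99 ± 0.86 SE, adjusted p = 2.4e-05, -8.33 without day 8 replicate 3). Gdf3, a TGF-beta family ligand of pluripotent cells, held 2 counts over all day 8 libraries and 3184 over all day 0 libraries, which makes it lower by 2378-fold (95% counting interval 658 to 19640.5), counting error only. Stat3 and Lifr, both on the naive list, also fell. Stat3, which carries the LIF signal to the nucleus, had 63.9, 33.1 and 43.2 CPM on day 8 against 165, 138 and 142 CPM on day 0 (-1.67 ± 0.25 SE, adjusted p = 0.00018). Lifr, a chain of the LIF receptor, had 54.3, 72.2 and 40.5 CPM on day 8 against 214, 135 and 200.2 CPM on day 0 (-1.72 ± 0.40 SE, adjusted p = 0.0046). The naive genes that were not called were Tbx3, at 84.5, 22.6 and 6.9 CPM on day 8 and 211, 111 and 80.9 CPM on day 0, and Jam2, at 42.3, 52 and 25.7 CPM on day 8 and 77.3, 53.1 and 42 CPM on day 0.

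Genes of the formative and primed epiblast, the states that follow naive pluripotency, mostly fell as well, 7 of 12 with a median of -2.49, or -3.81 without day 8 replicate 1. Otx2, a homeobox factor of the primed epiblast and later of the anterior brain, had 2.32, 0.917 and 0 CPM on day 8 against 47, 67.7 and 69.1 CPM on day 0 (-6.01 ± 1.29 SE, adjusted p = 0.0037, -7.16 without day 8 replicate 1 and -5.29 without day 8 replicate 3). Etv4, an ETS factor downstream of FGF signals, had 5.49, 4.16 and 3.47 CPM on day 8 against 133, 104 and 96.5 CPM on day 0 (-4.68 ± 0.31 SE, adjusted p = 6e-07). Both genes of this list that rose also serve in neural tissue. Sox3, a relative of Sox2, had 75.9, 137 and 88.9 CPM on day 8 and 7.56, 9.93 and 4.07 CPM on day 0 (3.77 ± 0.33 SE, adjusted p = 3.7e-06). Zic2, a zinc finger factor of the dorsal neural tube, had 72.6, 69.4 and 70.01 CPM on day 8 and 10.7, 50.8 and 31.1 CPM on day 0 (1.2 ± 0.44 SE, adjusted p = 0.043, 1.79 without day 0 replicate 2). Its call was lost without any single day 8 library, without day 0 replicate 3, with no filter and with the 6 libraries alone (adjusted p = 0.061 to 0.10), and the list then had 1 rise. In the primitive streak list 5 of 10 genes fell and 3 rose. Nodal, the ligand that maintains the epiblast, had 0, 0.244 and 0.089 CPM on day 8 and 66.1, 50.3 and 33.5 CPM on day 0, and its feedback inhibitor Lefty1 had 0.634, 1.59 and 0.534 CPM on day 8 and 107, 169 and 90.5 CPM on day 0 (adjusted p = 1.3e-05 and adjusted p = 7.9e-05). The members that rose were Lhx1, Wnt3 and Wnt3a, which are also expressed in the neural tube. Lhx1, a LIM homeobox factor, had 194, 89.4 and 89.1 CPM on day 8 and 0.24, 0.779 and 1.85 CPM on day 0 (7.33 ± 0.91 SE, adjusted p = 0.00013, 6.71 without day 0 replicate 1 and 8.04 without day 0 replicate 3). The count of 5 falls was 3 without day 0 replicate 2 and without day 8 replicate 2.

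**Figure D2:**
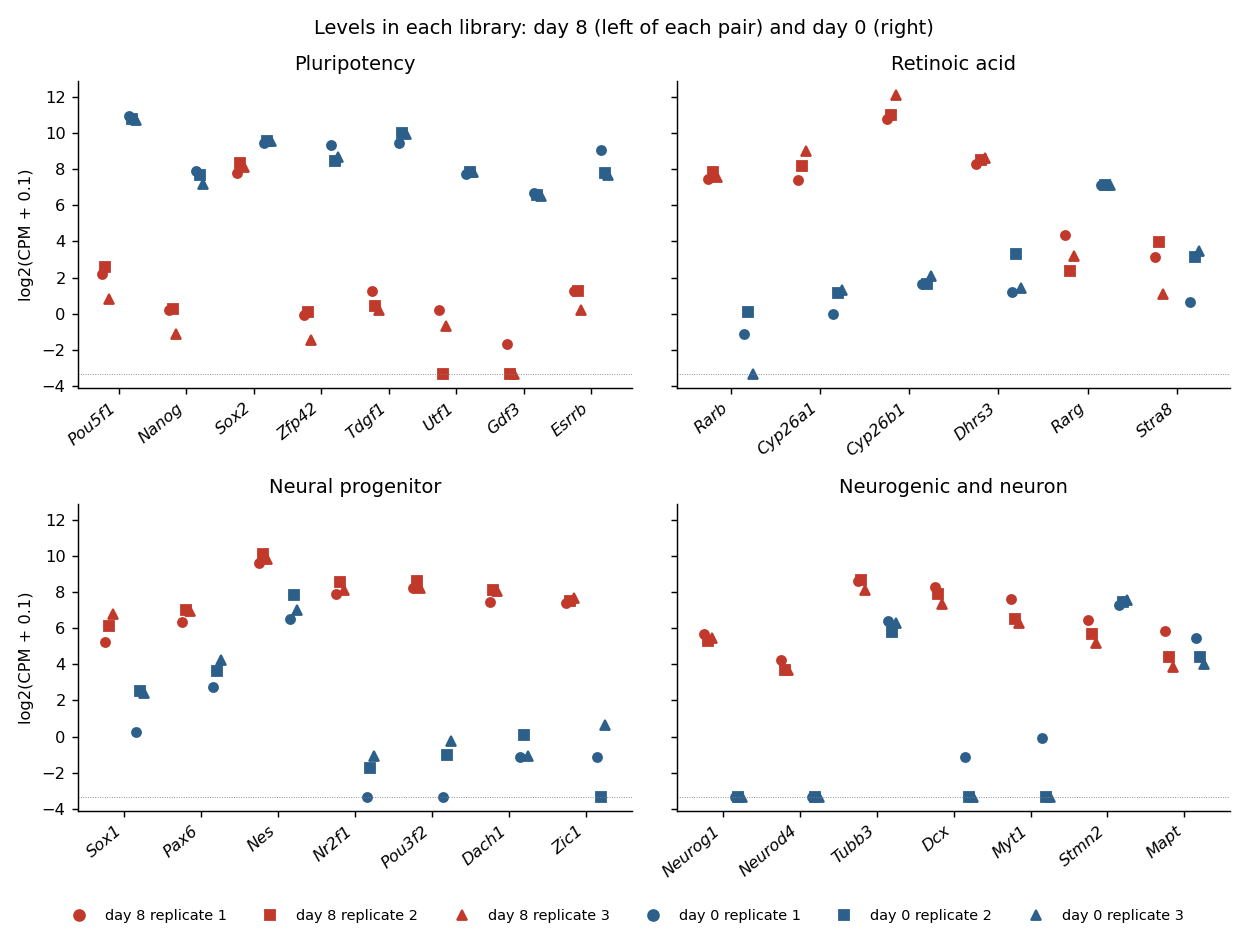
Levels of genes of the retinoic acid pathway, pluripotency and the neural lineage in each library, as log2(CPM + 0.1) on the vertical axis. In each pair of columns day 8 is on the left and day 0 on the right, each symbol is 1 library, and Pou5f1 lies at or below 5.81 CPM in every day 8 library, against at least 1682 CPM in every day 0 library.

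Most genes of the retinoic acid response rose. Of 19 tested, 15 rose and 1 fell, with a median of 4.75. The promoters of 2 of them hold a direct repeat of the receptor half-site spaced by 5 bases (DR5), the arrangement known from the Rarb promoter, and they are shown because both genes rose by more than 7 on the log2 scale. Sequences are the 250 bases before a RefSeq start of the gene (GRCm38.p6, the assembly that mm10 follows), 5′ to 3′ on the gene's strand, with the DR5 in capitals. The window shown for each gene is the one that holds the motif. The Rarb window is chr14:16575477-16575726, minus strand, and its DR5 lies 53 to 37 bases before the start, on the strand shown. This start lies inside the Rarb gene model that was counted (chr14:16430840-17082331), not at its 5′ end. Counts are per gene and do not separate its starts. The Cyp26a1 window is chr19:37697558-37697807, plus strand, and its DR5 lies 32 to 16 bases before the start, on the opposite strand.
Rarb: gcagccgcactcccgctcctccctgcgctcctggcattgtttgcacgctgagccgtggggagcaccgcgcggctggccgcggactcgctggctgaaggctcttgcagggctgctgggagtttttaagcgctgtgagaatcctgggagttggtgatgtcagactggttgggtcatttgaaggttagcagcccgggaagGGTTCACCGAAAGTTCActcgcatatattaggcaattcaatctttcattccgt
Cyp26a1: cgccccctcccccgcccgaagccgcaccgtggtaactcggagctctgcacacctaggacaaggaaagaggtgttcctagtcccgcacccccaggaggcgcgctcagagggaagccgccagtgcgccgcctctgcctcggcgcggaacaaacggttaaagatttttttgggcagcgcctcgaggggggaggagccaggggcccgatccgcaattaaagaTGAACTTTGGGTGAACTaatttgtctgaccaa
A DR5 on either strand was found in 29 of 32851 RefSeq promoter windows of this length (0.0883%), and in 2 of the 15 genes of the retinoic acid list that have a window. Of all windows with a DR5, 5 belong to tested genes, of which 3 rose and 2 fell. A DR2, the same half-sites spaced by 2 bases, was in 57 windows (0.174%) and in 0 of those 15. Of the windows with a DR2, 10 belong to tested genes, of which 3 rose, 1 fell and 6 were not called. Of the 9 Hox genes of groups 1 to 5 that have a window, 0 held a DR5 and 0 held a DR2. A match in letters describes the window and does not show that a receptor binds it.

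Rarb, the receptor gene that is itself a direct target of retinoic acid, had 178, 229.5 and 191 CPM on day 8 and 0.36, 0.974 and 0 CPM on day 0, a change of 8.63 ± 0.43 SE, adjusted p = 1.3e-07. Its value was 9.51 without day 0 replicate 2. The receptor genes did not move alike. Rara had 171, 162 and 142 CPM on day 8 and 60.8, 56.1 and 61.8 CPM on day 0 (1.41 ± 0.29 SE, adjusted p = 0.0018). Rarg fell, with 20.6, 5.13 and 9.21 CPM on day 8 against 141, 140.1 and 138 CPM on day 0 (-3.6 ± 0.42 SE, adjusted p = 3.9e-05, -4.26 without day 8 replicate 1), and none of its day 8 libraries reached a day 0 library. Per kilobase of the gene model, the mean level of Rarb was 52.9 ± 7.05 CPM on day 8 and 0.118 ± 0.13 on day 0, that of Rara 36.6 ± 3.38 on day 8 and 13.7 ± 0.708 on day 0, and that of Rarg 3.43 ± 2.36 on day 8 and 41 ± 0.453 on day 0 (SD, n = 3). On this scale Rarg was the highest of the 3 on day 0 and the lowest on day 8. The partner gene Rxra rose by 2.31 ± 0.20 SE, adjusted p = 3.7e-06.

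The largest change of the list was that of Cyp26b1, an enzyme that degrades retinoic acid. It had 1731, 2073 and 4399 CPM on day 8 and 3.0, 3.02 and 4.07 CPM on day 0, a change of 9.7 ± 0.61 SE, adjusted p = 1.2e-06, and each day 8 library was far above every day 0 library. Cyp26a1, an enzyme of the same family, had 170.3, 287 and 515 CPM on day 8 and 0.90, 2.14 and 2.41 CPM on day 0 (7.6 ± 0.57 SE, adjusted p = 3.3e-06). The order of the days differed between these enzymes: day 6 libraries held 187, 256 and 361 CPM of Cyp26a1, within the range of day 8, and 429, 329.5 and 883 CPM of Cyp26b1, below all of its day 8 libraries. Dhrs3, a reductase that turns retinaldehyde back into retinol, had 313, 369.6 and 393 CPM on day 8 and 2.16, 9.64 and 2.59 CPM on day 0 (6.21 ± 0.52 SE, adjusted p = 7.2e-06, 7.27 without day 0 replicate 2). Rdh10, the dehydrogenase of the opposite step, had 28.3, 19.6 and 30.3 CPM on day 8 and 7.26, 13.6 and 7.22 CPM on day 0 (1.47 ± 0.32 SE, adjusted p = 0.0029). Aldh1a2, the main retinoic acid synthase of the embryo, was not called, with 23.2, 0.856 and 1.07 CPM on day 8 and 2.04, 1.95 and 2.59 CPM on day 0.

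Crabp2, which delivers retinoic acid to its receptors, was highest on day 6: it averaged 20.9 ± 3.76 CPM on day 0, 1803 ± 222 on day 6 and 585 ± 226 on day 8 (SD, n = 3 each), and its change from day 0 to day 8 was 4.82 ± 0.30 SE, adjusted p = 3.5e-07. Stra8, a target of retinoic acid best known from germ cells entering meiosis, was seen mainly on day 6, with 64.2, 137 and 145 CPM, and was not called between day 8, with 8.66, 15.4 and 2.05 CPM, and day 0, with 1.44, 8.57 and 11.1 CPM. The day 6 libraries hold 4.05 M to 13.4 M counts without Rn45s. The Hox cofactors Meis1 and Meis2 rose, by 4.75 and 5.96 on the log2 scale, and Meis2 reached 242, 245 and 225 CPM on day 8 against 2.34, 4.48 and 5.18 CPM on day 0 (adjusted p = 1.4e-07).

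Hox genes rose in all 4 clusters, in the HoxB cluster up to paralog group 9 and in the others up to group 8 or less. All 14 tested genes of paralog groups 1 to 5 rose, with a median of 9.29, or 9.17 with Hoxd1, which had 0 counts on day 0, at its lower bound. Hoxb4 had 212, 355 and 217 CPM on day 8 and 0.12, 0.779 and 0 CPM on day 0 (9.66 ± 0.62 SE, adjusted p = 1e-06, 9.03 without day 0 replicate 1 and 11.35 without day 0 replicate 2). Hoxc4 had 217, 183 and 193 CPM on day 8 and 0.12, 0.195 and 1.11 CPM on day 0 (9.2 ± 0.63 SE, adjusted p = 1.5e-06, 8.54 without day 0 replicate 1 and 10.28 without day 0 replicate 3). Hoxd3 had 129, 134 and 132 CPM on day 8 and 2 counts in all on day 0, which makes it higher by 2132-fold (95% counting interval 589.9 to 17606). Across Hoxb4, Hoxc4 and Hoxd3 no day 8 library held less than 129 CPM and no day 0 library held more than 1.11 CPM. Hoxb2, with 66.8, 127 and 71.3 CPM on day 8 and 1 count on day 0, was higher by 2887-fold (95% counting interval 518 to 114043), and Hoxb5, with 150.4, 183 and 134 CPM and 2 counts, by 2489-fold (95% counting interval 689 to 20558). Hoxd1 was at least 133-fold higher, set against 3 counts over the day 0 libraries. Hoxb2, Hoxb5 and Hoxd3 rest on so few day 0 counts that their size on day 0 is known only within these intervals, which cover counting error only. Hoxb5os, a transcript antisense to Hoxb5, had 266, 318 and 305 CPM on day 8 and 1 count on day 0 (adjusted p = 1.4e-07). The library kit is named as directional, but whether counting used the strand is not given in the sources used here, so reads of Hoxb5 and Hoxb5os may not have been told apart.

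Hoxb1 had a higher mean on day 6 than on day 8. This gene, expressed in the hindbrain and among the first Hox genes to answer retinoic acid, had 0.96, 1.75 and 0.741 CPM on day 0, 23.5, 14 and 95 CPM on day 6 and 11.2, 4.34 and 4.9 CPM on day 8, and its change from day 0 to day 8 was 2.5 ± 0.76 SE, adjusted p = 0.019. That call was lost when 1 of several libraries was left out, with a change of 1.97 without day 8 replicate 1 (adjusted p = 0.058), 2.37 without day 0 replicate 1 (adjusted p = 0.079) and 2.35 without day 0 replicate 3 (adjusted p = 0.069). In groups 1 to 5, 6 genes had a higher mean on day 6 than on day 8 and 8 did not. In groups 6 to 13, 0 of the 9 genes that rose did. Over all genes that rose, the share with a higher mean on day 6 was 20.9%.

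Of 24 listed genes of groups 6 to 13, 23 were in the table and 14 had enough counts to be tested. Of these 9 rose, with a median of fitted values over the tested genes of 4.63, or 7.47 without day 0 replicate 2, 7.71 with counts halved and 2.0 with no filter on low counts. Hoxb8 had 386, 569.9 and 435 CPM on day 8 and 0.12, 1.95 and 0 CPM on day 0 (9.34 ± 0.82 SE, adjusted p = 1.6e-05, 8.60 without day 0 replicate 1 and 12.18 without day 0 replicate 2). Hoxb9 had 489, 324 and 445 CPM on day 8 and 1.2, 3.7 and 0.741 CPM on day 0 (7.74 ± 0.90 SE, adjusted p = 9.1e-05, 8.62 without day 0 replicate 2). Hoxb9 came late, with 3.39, 35.6 and 16.7 CPM on day 6. Its paralogs in the other clusters stayed near the floor on both days: Hoxa9 had 1.9, 3.24 and 1.38 CPM on day 8 and 0, 0.584 and 0 CPM on day 0 (3.37 ± 1.48 SE, adjusted p = 0.074), Hoxc9 had 1.27, 2.63 and 0.935 CPM on day 8 and 0, 0.487 and 0.37 CPM on day 0, and Hoxd9 had 0.845, 0.856 and 2.31 CPM on day 8 and 0.60, 0.195 and 0.741 CPM on day 0, none of them called. Hoxa9 was called without day 0 replicate 2, which leaves it 0 counts on day 0 (adjusted p = 0.026), and with the 6 libraries alone (adjusted p = 0.035). Hoxb6, Hoxb7, Hoxa6, Hoxa7, Hoxc6, Hoxc8 and Hoxd8 made up the other rises, between 2.57 and 9.11. The call of Hoxc8 was lost without day 0 replicate 1 or 3 or day 8 replicate 2 or 3 (adjusted p = 0.066 to 0.10). From group 10 onward no gene exceeded 2.44 CPM in a day 8 library. Hoxd13, the last gene of its cluster, had 0 CPM in every library on day 8 and 0, 2.34 and 1.11 CPM on day 0 and was not tested. The 1 gene of these groups that fell, Hoxc13, had 0.423, 0 and 0 CPM on day 8 and 3.0, 1.56 and 0.741 CPM on day 0 (-3.93 ± 1.44 SE, adjusted p = 0.035). Its call was lost without day 0 replicate 2 or 3 or day 8 replicate 2 or 3 (adjusted p = 0.055 to 0.12), with library totals (0.052) and with no filter (0.051). It was not tested without day 0 replicate 1, with Rn45s kept, with counts halved or with the 6 libraries alone.

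**Figure D3:**
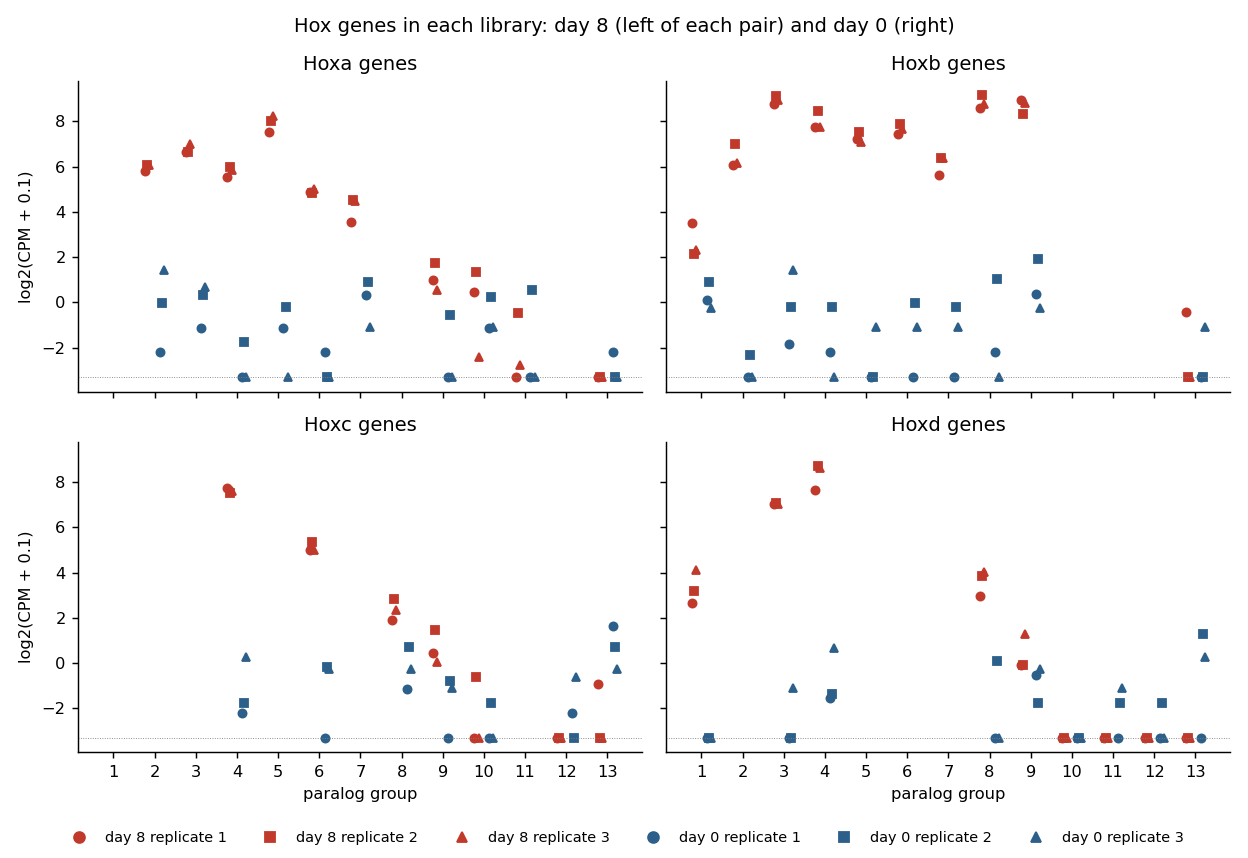
Levels of Hox genes of each cluster in each library, as log2(CPM + 0.1), by paralog group from 1 to 13 on the horizontal axis. Day 8 is left and day 0 right in each pair, symbols are libraries, and the dotted line marks 0 CPM. In the HoxB panel day 8 libraries are high from Hoxb2 to Hoxb9, which lies at 324 to 489 CPM. Hoxb1 lies at 4.34 to 11.2 CPM on day 8, and Hoxa9, Hoxc9 and Hoxd9 stay at or below 3.24 CPM.

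Every one of the 21 neural progenitor and radial glia genes tested rose, with a median of 4.98. Nr2f1, an orphan nuclear receptor of the neural tube also named COUP-TF1, had 242, 371 and 282 CPM on day 8 and 0, 0.195 and 0.37 CPM on day 0 (11.08 ± 0.53 SE, adjusted p = 1e-07, 10.14 without day 0 replicate 1 and 11.77 without day 0 replicate 3). Pou3f2, the POU factor Brn2, had 297, 385 and 302 CPM on day 8 and 0, 0.39 and 0.741 CPM on day 0 (10.24 ± 0.75 SE, adjusted p = 3.1e-06, 9.30 without day 0 replicate 1 and 10.98 without day 0 replicate 3). Dach1 rose by 8.69 ± 0.42 SE, adjusted p = 1e-07 and Zic1, a zinc finger factor of dorsal neural tissue, by 8.63 ± 0.61 SE, adjusted p = 1.8e-06. Neither gene had less than 171 CPM in a day 8 library or more than 1.48 CPM in a day 0 library. Dach1 was at 9.31 without day 0 replicate 2, and Zic1 at 8.02 without day 0 replicate 2 and 9.66 without day 0 replicate 3. Sox11, a factor of newly committed neural cells, reached 2302, 2188 and 2090.5 CPM on day 8 against 98, 120.4 and 103 CPM on day 0 (4.35 ± 0.19 SE, adjusted p = 4.2e-08).

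Several early neural markers had a higher mean on day 6 than on day 8. Sox1, the first factor specific to the neural plate, averaged 3.97 ± 2.51 CPM on day 0, 173 ± 95.4 on day 6 and 72.3 ± 36.4 on day 8 (SD, n = 3 each), and its change from day 0 to day 8 was 4.28 ± 0.68 SE, adjusted p = 0.00066. Pax6, a paired box factor of neural progenitors, had 79.9, 128 and 126 CPM on day 8 and 6.66, 12.2 and 18.5 CPM on day 0 (3.2 ± 0.46 SE, adjusted p = 0.00025), with 146, 95.6 and 275 CPM on day 6. The intermediate filament gene Nes had 788, 1116 and 916 CPM on day 8 and 89.6, 229.5 and 129 CPM on day 0 (2.65 ± 0.38 SE, adjusted p = 0.00021). Its day 6 libraries held 648, 1406 and 794 CPM. The means of Nes on day 6 and day 8 were nearly equal, at 949 ± 402 and 940 ± 165 CPM (SD, n = 3 each). Other progenitor genes had their highest mean on day 8. Hes5, a Notch target that keeps progenitors dividing, had 65.6, 77.4 and 53 CPM on day 8 and 0.36, 0.292 and 0 CPM on day 0 (7.87 ± 0.52 SE, adjusted p = 5.7e-07). Fabp7, a lipid carrier of radial glia, had 0.48, 0 and 0.37 CPM on day 0, 5.93, 1.41 and 0 CPM on day 6 and 69.4, 64.8 and 27.9 CPM on day 8, a change from day 0 to day 8 of 7.45 ± 1.08 SE, adjusted p = 0.00029, or 8.57 without day 0 replicate 1. Sox9, which marks progenitors that can form glia, rose by 6.93 ± 0.72 SE, adjusted p = 2.9e-05, or 8.25 without day 0 replicate 2.

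Proneural genes, the helix-loop-helix factors that commit progenitors to become neurons, rose at 8 of 11 genes tested, and the median of the tested genes was 6.53. Neurog1 had 50.7, 39 and 43.9 CPM on day 8 and 0 counts on day 0, which makes it at least 469.8-fold higher (adjusted p = 1.4e-06). Neurod4 had 18.6, 13 and 13 CPM on day 8 and 0 counts on day 0, at least 152-fold higher (adjusted p = 4.4e-05). Olig3, a factor of dorsal spinal cord progenitors, had 90.8, 16.5 and 95.7 CPM on day 8 and 0.48, 0.779 and 0.37 CPM on day 0 (6.89 ± 0.80 SE, adjusted p = 5.9e-05). Nhlh1, a marker of newborn neurons, had 66.4, 45.1 and 46.6 CPM on day 8 and 0.72, 0 and 0.741 CPM on day 0 (6.74 ± 0.62 SE, adjusted p = 5.5e-06, 7.55 without day 0 replicate 1 and 6.16 without day 0 replicate 2). Olig2, the ventral counterpart that makes motor neurons and oligodendrocytes, was not called, with 5.07, 2.44 and 0.712 CPM on day 8 and 0.24, 0 and 0 CPM on day 0 (4.53 ± 1.84 SE, adjusted p = 0.056). Neurod1 was not called either, at 18.4, 27 and 38.7 CPM on day 8 and 29.5, 16.4 and 22.4 CPM on day 0.

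Neuronal genes rose at 19 of 25 genes tested, with a median of 3.92, and 1 fell. Dcx, the microtubule protein of migrating young neurons, had 310.3, 239 and 160.2 CPM on day 8 and 0.36, 0 and 0 CPM on day 0 (10.28 ± 0.60 SE, adjusted p = 3.5e-07, and at least 1142-fold without day 0 replicate 1). Without that library Dcx, and Myt1 and Msx3 below, held 0 counts on day 0, and the bound sets 3 counts over the remaining libraries in their place. Tubb3, the neuronal beta-tubulin, was present in the ES cells and rose: it had 389, 403 and 281 CPM on day 8 and 83, 55.8 and 78.1 CPM on day 0 (2.31 ± 0.28 SE, adjusted p = 4.4e-05). Day 6 lay with day 0 for Tubb3, at 59.3, 60.5 and 28.6 CPM. Myt1, a zinc finger factor of neuronal commitment, had 195, 90.2 and 79.2 CPM on day 8 and 0.84, 0 and 0 CPM on day 0 (8.22 ± 1.25 SE, adjusted p = 0.0005, and at least 558-fold without day 0 replicate 1). Its relative St18 had 29, 21.4 and 12.5 CPM on day 8 and 0.36, 0.195 and 0 CPM on day 0 (6.45 ± 0.68 SE, adjusted p = 1.5e-05, 7.31 without day 0 replicate 1). Snap25, a synaptic vesicle fusion protein, had 26.5, 18.9 and 14.5 CPM on day 8 and 0.36, 0 and 0.37 CPM on day 0 (6.31 ± 0.73 SE, adjusted p = 2.8e-05, 7.10 without day 0 replicate 1). Of the 19 neuron genes that rose, 0 had a higher mean on day 6 than on day 8, against 20.9% of all genes that rose. Some neuronal genes were also expressed in the ES cells. Stmn2, a microtubule regulator of growth cones, fell, with 88.5, 50.7 and 35.7 CPM on day 8 against 158, 173 and 186 CPM on day 0 (-1.57 ± 0.33 SE, adjusted p = 0.0023). The filament gene Ina had 249, 215 and 202 CPM on day 8 and 192, 193 and 216 CPM on day 0 and was not called, nor was Mapt, which encodes tau. Slc17a6 and Slc18a3, transporters of mature glutamatergic and cholinergic neurons, were too low to be tested.

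Factors that pattern the spinal cord and hindbrain from back to belly rose at 16 of 22 genes tested. The median over the tested genes was 4.71. Pax7, a paired box factor of the dorsal neural tube, had 46.3, 44.1 and 46.3 CPM on day 8 and 0 counts on day 0, at least 491-fold higher (adjusted p = 3.6e-05). Pax3 had 112, 250.5 and 173 CPM on day 8 and 0.24, 0.974 and 0 CPM on day 0 (8.64 ± 0.64 SE, adjusted p = 2.6e-06, 9.90 without day 0 replicate 2). Msx3, a homeobox gene of the dorsal neural tube, had 137, 171 and 183 CPM on day 8 and 0.24, 0 and 0 CPM on day 0 (10.29 ± 0.61 SE, adjusted p = 3.3e-07, and at least 898-fold without day 0 replicate 1). In these dorsal factors each day 8 library was above each day 0 library. Lhx2 was uneven within day 8: it had 13.5, 0.611 and 2.72 CPM on day 8 and 0 counts on day 0, at least 44.4-fold higher, and at least 19.8-fold without day 8 replicate 1. Of the ventral genes, Shh, the ligand of the notochord and floor plate, had 18.4, 0.856 and 2.76 CPM on day 8 and 0.12, 0.195 and 0 CPM on day 0 (5.81 ± 1.78 SE, adjusted p = 0.017). Its change was 3.83 without day 8 replicate 1 (adjusted p = 0.093), and its call was also lost without any single day 0 library (adjusted p = 0.053 to 0.065). Foxa2, of the floor plate, had 5.07, 4.16 and 4.81 CPM on day 8 and 0.12, 0 and 1.11 CPM on day 0 (3.88 ± 0.90 SE, adjusted p = 0.0034, 3.21 without day 0 replicate 2 and 5.86 without day 0 replicate 3). Nkx6-1, of ventral progenitors, was not called, at 4.33, 0.0611 and 0.846 CPM on day 8 and 0, 0.974 and 0 CPM on day 0. The members that fell were Nkx2-9 and En2, at no more than 2.93 CPM in any day 8 library. The count of falls was 1 without day 8 replicate 1 or 3 or day 0 replicate 1 or 3, where the call of Nkx2-9 was lost (adjusted p = 0.055 to 0.067), and with counts halved.

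Forebrain and midbrain factors were mostly too low to test, with 6 of those listed tested and 3 of these called, all higher. Nkx2-1, of the ventral forebrain, had 0 counts in all 6 libraries. Wnt1, a ligand of the midbrain and of the roof plate along the spinal cord, had 49.2, 77.5 and 43.7 CPM on day 8 and 2 counts on day 0, higher by 909-fold (95% counting interval 251 to 7512). Foxb1 had 8.88, 4.03 and 5.83 CPM on day 8 and 0.24, 0 and 0.37 CPM on day 0 (4.98 ± 0.89 SE, adjusted p = 0.0006). The third, Emx2, had 6.66, 5.26 and 6.1 CPM on day 8 and 0, 1.75 and 1.48 CPM on day 0 (2.56 ± 0.98 SE, adjusted p = 0.049, 1.90 without day 0 replicate 1). It was not called without any single day 8 library or without day 0 replicate 2 or 3 (adjusted p = 0.051 to 0.087). The call was also lost with no filter (adjusted p = 0.055) and with the 6 libraries alone (0.061).

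Notch signalling keeps part of the progenitors undivided in fate while neighbours become neurons, and 10 of its 14 genes tested rose while 0 fell (median 1.68). Among ligands, Dll4 had 4.97, 5.93 and 7.26 CPM on day 8 and 0, 0.292 and 0.555 CPM on day 0 (4.67 ± 1.07 SE, adjusted p = 0.0033, 3.89 without day 0 replicate 1 and 5.48 without day 0 replicate 3). Dll3 had 27.5, 18.8 and 22 CPM on day 8 and 5.22, 2.82 and 3.15 CPM on day 0 (2.58 ± 0.52 SE, adjusted p = 0.0015). Notch1, the receptor, had 317, 371 and 307 CPM on day 8 and 85.6, 48.6 and 56.5 CPM on day 0 (2.38 ± 0.24 SE, adjusted p = 1e-05). Among targets and regulators, Dtx4, a ubiquitin ligase of the pathway, had 511, 948 and 787 CPM on day 8 and 29.6, 36.1 and 45 CPM on day 0 (4.35 ± 0.29 SE, adjusted p = 6e-07). Nrarp, a target that feeds back on the receptor, had 73.5, 62.3 and 68.7 CPM on day 8 and 7.8, 2.14 and 5.18 CPM on day 0 (3.73 ± 0.39 SE, adjusted p = 1.6e-05), and Hey1, a transcriptional target, rose by 3.63 ± 0.42 SE, adjusted p = 3e-05. In Dll4, Dll3, Notch1, Dtx4, Nrarp and Hey1 each day 8 library was above each day 0 library.

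Hedgehog pathway genes moved in both directions. Of 8 tested, 5 rose and 2 fell, with a median of 1.61, beside 25.2% higher and 22.8% lower over all genes tested. Among co-receptors, Gas1 had 288, 369 and 352 CPM on day 8 and 0.72, 2.92 and 2.41 CPM on day 0 (7.49 ± 0.40 SE, adjusted p = 1.8e-07). Boc had 191, 222 and 177 CPM on day 8 and 2.04, 2.14 and 1.85 CPM on day 0 (6.59 ± 0.28 SE, adjusted p = 4.2e-08). Hhip, which sequesters the ligand, had 19.97, 58.7 and 29.3 CPM on day 8 and 5.1, 3.31 and 3.33 CPM on day 0 (3.18 ± 0.45 SE, adjusted p = 0.00013). Gli1, a target that reports pathway activity, had 46.2, 15.5 and 14.1 CPM on day 8 against 141, 60.3 and 78.9 CPM on day 0 (-1.9 ± 0.70 SE, adjusted p = 0.048, -2.65 without day 8 replicate 1). Its call was lost without any single day 0 library, without day 8 replicate 2 or 3, with library totals and with no filter (adjusted p = 0.060 to 0.16), and the 2 falls were then 1. Gli3, the factor that acts mainly as a repressor in dorsal neural tissue, rose by 2.21 ± 0.37 SE, adjusted p = 0.00056.

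Neural crest genes gave a mixed picture, with 4 of 11 higher and 1 lower (median 1.75, and 1.03 without day 8 replicate 1). Ednrb, the endothelin receptor of crest cells and of neural progenitors, had 169, 208 and 121 CPM on day 8 and 0 counts on day 0, at least 1725-fold higher (adjusted p = 6e-07). Tfap2b, an AP-2 factor of crest and of spinal interneurons, had 88.8, 188 and 165 CPM on day 8 and 0, 0.39 and 0.37 CPM on day 0 (9.5 ± 0.66 SE, adjusted p = 1.2e-06, 8.57 without day 0 replicate 1 and 10.45 without day 0 replicate 2). Tfap2a had 47.1, 29.4 and 12.5 CPM on day 8 and 0.84, 1.95 and 2.59 CPM on day 0 (4.11 ± 1.25 SE, adjusted p = 0.022). It was not called without day 8 replicate 1, without any single day 0 library or with no filter (adjusted p = 0.050 to 0.074). The defining crest factor Sox10 had 0.423, 0.306 and 1.2 CPM on day 8 and 0.12, 1.56 and 1.85 CPM on day 0 and was not called. Erbb3, a neuregulin receptor of crest and glia, fell to 12.8, 6.23 and 10.1 CPM on day 8 against 62.6, 58.7 and 33.7 CPM on day 0 (-2.42 ± 0.37 SE, adjusted p = 0.00021). The 4 rises were 2 without day 8 replicate 1 or without day 0 replicate 1 or 3, and the 1 fall was 2 without day 8 replicate 1 or 3. Among glial genes 3 of 7 rose and 1 fell, with 0 falls without day 8 replicate 3 or day 0 replicate 1 and 2 without day 0 replicate 3. Nfia, the factor that starts gliogenesis, had 94.7, 44.9 and 18.9 CPM on day 8 and 0.24, 1.56 and 1.48 CPM on day 0 (5.73 ± 0.84 SE, adjusted p = 0.00031, 4.98 without day 8 replicate 1 and 5.14 without day 0 replicate 1), while Gfap of astrocytes had 0, 0.122 and 0 CPM on day 8 and 1.2, 1.27 and 0.37 CPM on day 0 and was not tested.

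PRC1 subunit genes moved in both directions. Of 22 PRC1 genes tested, 10 rose and 4 fell, beside 25.2% and 22.8% of all genes tested. The median was 0.21, or 0.37 without day 8 replicate 1, 0.05 without day 8 replicate 3 and 0.33 without day 0 replicate 2. Of the other chromobox genes that can take the place of Cbx7 in PRC1, Cbx8 had 21.6, 15.3 and 12.6 CPM on day 8 and 3.48, 2.34 and 1.11 CPM on day 0 (2.77 ± 0.51 SE, adjusted p = 0.00088). Cbx2, whose protein compacts chromatin and forms condensates, had 101, 131 and 118 CPM on day 8 and 65.4, 67.6 and 48.5 CPM on day 0 (0.94 ± 0.25 SE, adjusted p = 0.0076). For both genes every day 8 library was above every day 0 library. Cbx6 had 92.2, 82.7 and 89.2 CPM on day 8 and 107, 138 and 108 CPM on day 0 and was not called (-0.42 ± 0.18 SE, adjusted p = 0.079). Per kilobase of gene model, the order of Cbx2, Cbx6 and Cbx8 on day 8 was Cbx2 at 31 ± 4.03 CPM, Cbx6 at 16.2 ± 0.894 and Cbx8 at 11.8 ± 3.31. On day 0 the order was Cbx6 at 21.6 ± 3.18, Cbx2 at 16.1 ± 2.78 and Cbx8 at 1.66 ± 0.851 (SD, n = 3 for each).

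The Polyhomeotic genes, whose proteins polymerize PRC1, moved in opposite directions. Phc1 had 128, 149 and 192 CPM on day 8 and 1176, 1169.6 and 1101 CPM on day 0 (-2.88 ± 0.25 SE, adjusted p = 3.5e-06). Phc2 had 209.5, 246 and 199 CPM on day 8 and 31.4, 30.2 and 27.6 CPM on day 0 (2.87 ± 0.17 SE, adjusted p = 3.3e-07). Per kilobase, Phc1 averaged 39.6 ± 8.33 CPM on day 8 and 291 ± 10.5 on day 0, and Phc2 averaged 50.1 ± 5.65 on day 8 and 6.83 ± 0.451 on day 0 (SD, n = 3). On this scale Phc1 was above Phc2 in every day 0 library, while on day 8 the ranges of the 2 genes overlapped, at 32.4 to 48.8 CPM for Phc1 and 45.7 to 56.5 CPM for Phc2. The ubiquitin ligase genes also differed: Ring1 had 44, 47.2 and 41.1 CPM on day 8 and 9.96, 13.1 and 10.0 CPM on day 0 (2.0 ± 0.26 SE, adjusted p = 6.3e-05). Rnf2, the main ligase of ES cells, had 78.7, 122 and 116 CPM on day 8 and 73.1, 106 and 109 CPM on day 0 and was not called (0.14 ± 0.30 SE, adjusted p = 0.72). Bmi1, a PCGF subunit of CBX-containing PRC1, had 39.6, 51.3 and 39.2 CPM on day 8 and 9.48, 12.1 and 12.2 CPM on day 0 (1.95 ± 0.23 SE, adjusted p = 3.6e-05). Its paralog Pcgf2 was not called, at 79.8, 99 and 92.3 CPM on day 8 and 106, 101 and 87.8 CPM on day 0. Per kilobase, Pcgf2 was above Bmi1 on both days. Pcgf2 averaged 31.9 ± 3.43 CPM on day 8 and 34.6 ± 3.25 on day 0, and Bmi1 12.1 ± 1.92 and 3.13 ± 0.429 (SD, n = 3). In variant PRC1, which lacks a chromobox subunit, Rybp fell to 23.4, 41.6 and 42.3 CPM on day 8 against 123, 154 and 139 CPM on day 0 (-1.95 ± 0.27 SE, adjusted p = 0.00012). Its paralog Yaf2 rose, with 19.9, 22.4 and 25.2 CPM on day 8 and 2.76, 5.45 and 5.55 CPM on day 0 (2.32 ± 0.35 SE, adjusted p = 0.00023). Auts2, which turns variant PRC1 to activation in neurons, had 275, 321 and 255 CPM on day 8 and 30.8, 38.9 and 34.8 CPM on day 0 (3.03 ± 0.33 SE, adjusted p = 2.1e-05).

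PRC2 genes moved one way where they moved: 8 of 12 fell and 0 rose, with a median of -0.95. Of these falls, that of the catalytic subunit gene Ezh1 (-0.82) was not steady. Its call was lost without any single day 0 library, without day 8 replicate 2 or 3, with library totals and with no filter (adjusted p = 0.051 to 0.21). Rbbp7 lost its call without day 0 replicate 3 (adjusted p = 0.057) and with library totals (0.15). The other catalytic subunit gene, Ezh2, was not called, with 320.5, 471 and 601 CPM on day 8 and 398, 475 and 478 CPM on day 0 (0.05 ± 0.23 SE, adjusted p = 0.88). Its value was -0.18 without day 8 replicate 3 and -0.01 without day 0 replicate 1, so no direction is given. The core subunit genes Eed and Suz12 fell, with log2 changes of -1.84 and -1.09, and Eed had 65, 104 and 89.2 CPM on day 8 against 301, 291 and 333 CPM on day 0 (adjusted p = 1.6e-05). Phf19, Epop and Jarid2, accessory subunits that guide PRC2 to its targets, were among the genes that fell. Phf19 had 3.59, 1.47 and 1.56 CPM on day 8 against 50.9, 27.5 and 27 CPM on day 0 (-4.03 ± 0.76 SE, adjusted p = 0.0013). Epop had 30.4, 33.9 and 27.7 CPM on day 8 against 236, 175 and 154 CPM on day 0 (-2.62 ± 0.27 SE, adjusted p = 1.2e-05). Jarid2 had 546, 606 and 629 CPM on day 8 against 1959, 1612 and 1795 CPM on day 0 (-1.59 ± 0.15 SE, adjusted p = 7.7e-06). For each of these accessory genes the lowest day 0 library was more than 1.5 times above the highest day 8 library.

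**Figure D4:**
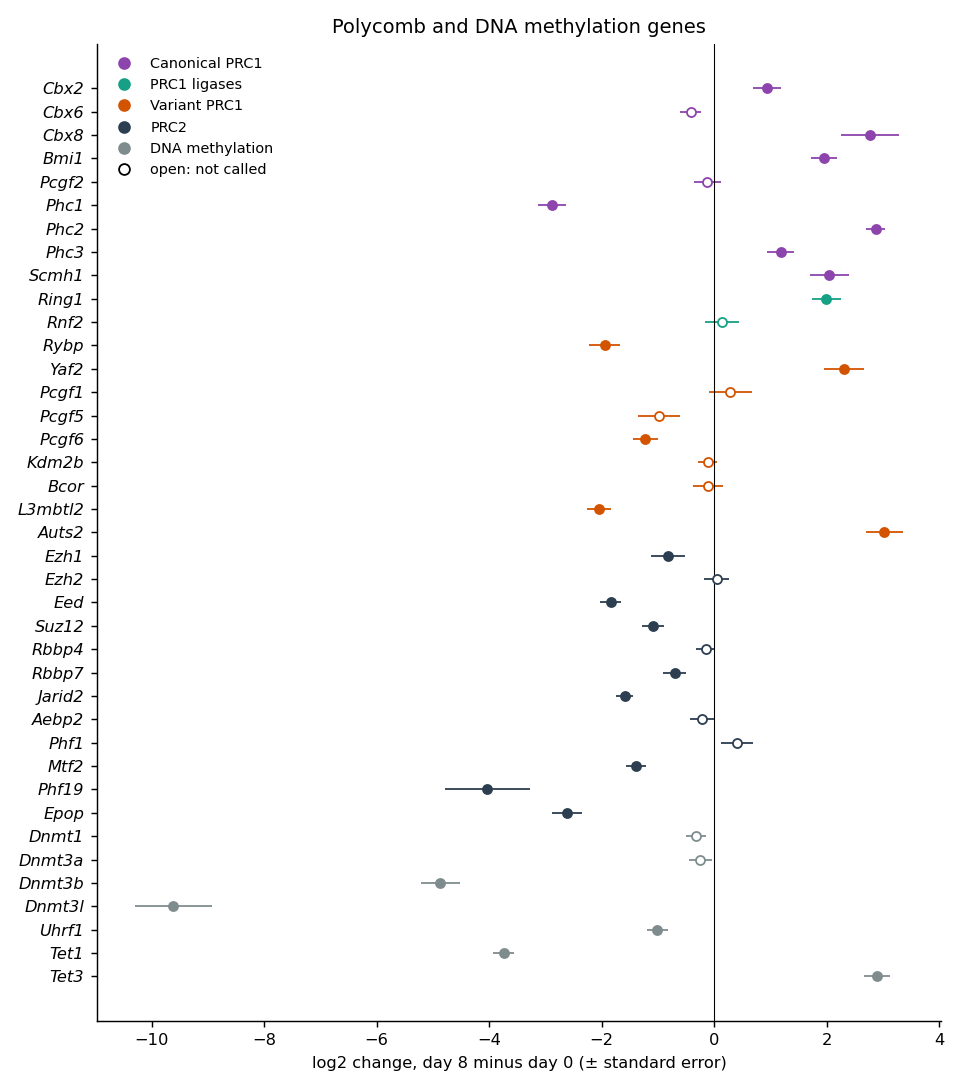
Log2 change from day 0 to day 8 (horizontal axis, day 8 minus day 0) of tested PRC1, PRC2 and DNA methylation genes, with bars of 1 standard error. Among PRC1 genes Auts2 (3.03) and Phc2 (2.87) lie furthest right and Phc1 (-2.88) furthest left, and Dnmt3l (-9.61) has the largest change of all genes drawn.

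Most DNA methylation genes tested fell. Of 8 tested, 5 fell and 1 rose, with a median of -1.59, which was -0.87 without day 8 replicate 1, -0.84 without day 0 replicate 1 and -1.05 without day 0 replicate 2. Dnmt3l, the cofactor of the de novo methyltransferases in early embryo and germ line, had 2.11, 0.367 and 0.445 CPM on day 8 and 824, 525 and 586 CPM on day 0 (-9.61 ± 0.68 SE, adjusted p = 2.6e-06, -10.57 without day 8 replicate 1). Dnmt3b had 20.5, 45.9 and 43.6 CPM on day 8 and 878, 1158 and 1186 CPM on day 0 (-4.87 ± 0.35 SE, adjusted p = 1.4e-06). Dnmt3a, the other de novo enzyme, was not called, with 633, 461 and 424 CPM on day 8 and 507, 672 and 618 CPM on day 0. The TET dioxygenases, which oxidize methylcytosine, went opposite ways. Tet1 had 149, 157 and 166 CPM on day 8 and 2115, 2122 and 2090.4 CPM on day 0 (-3.74 ± 0.19 SE, adjusted p = 1.3e-07). Tet3 had 553, 619 and 729 CPM on day 8 and 77.2, 92.8 and 84.8 CPM on day 0 (2.9 ± 0.24 SE, adjusted p = 2.3e-06). Per kilobase, Tet3 at 54 ± 7.57 CPM was above Tet1 at 11 ± 0.598 on day 8, and Tet1 at 147 ± 1.16 was above Tet3 at 7.23 ± 0.666 on day 0 (SD, n = 3 each).

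Germ cell and meiosis genes, many of which ES cells express at low level, fell at 10 of 14 genes tested and rose at 0 (median -4.41). Mael, a factor of transposon silencing, had 0 counts on day 8 and 8.52, 16.4 and 11.8 CPM on day 0, at least 186-fold lower (adjusted p = 0.00019). Ddx4, the germ cell helicase Vasa, had 0.211, 0.122 and 0.267 CPM on day 8 and 25.9, 53.6 and 45.4 CPM on day 0 (-7.6 ± 0.67 SE, adjusted p = 3.6e-06). Tex19.1 had 1.48, 0.244 and 0 CPM on day 8 and 37.4, 115 and 91.3 CPM on day 0 (-7.5 ± 1.03 SE, adjusted p = 0.00025, -9.44 without day 8 replicate 1 and -6.70 without day 8 replicate 3). Taf7l had 0.211, 0.122 and 0.801 CPM on day 8 and 1.56, 19.7 and 10.0 CPM on day 0 (-4.66 ± 1.24 SE, adjusted p = 0.0085, -5.92 without day 8 replicate 3 and -3.82 without day 0 replicate 2). In Taf7l the day 0 libraries differed among themselves by more than 10-fold.

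Cell cycle genes were shifted down by a modest amount, with 13 of 24 lower and 2 higher and a median of -0.72. Of the falls, Ccna2, Plk1 and Pcna lost their calls with library totals in place of TMM scaling (adjusted p = 0.24, 0.095 and 0.11). They also lost them without day 8 replicate 1 (adjusted p = 0.18, 0.14 and 0.053). The calls of Ccna2 and Plk1 were lost too without day 0 replicate 2 or 3 or day 8 replicate 3 (adjusted p = 0.067 to 0.12). That of Ccna2 was further lost without day 0 replicate 1 (0.069), with no filter (0.066) and with a replicate block (0.064). Among D-type cyclins, which drive entry into the cycle, Ccnd2 rose. It had 1484, 2643 and 2737 CPM on day 8 and 97.6, 134 and 126 CPM on day 0 (4.26 ± 0.26 SE, adjusted p = 3.3e-07). Ccnd1 had 316, 122 and 159 CPM on day 8 and 272, 257 and 245 CPM on day 0 and was not called. Per kilobase, Ccnd2 averaged 396 ± 121 CPM on day 8 and 20.6 ± 3.3 on day 0, and Ccnd1 averaged 52.4 ± 27.1 on day 8 and 68 ± 3.5 on day 0 (SD, n = 3). Ccne1, the cyclin of S phase entry that is high throughout the ES cell cycle, fell to 39.8, 74.3 and 83 CPM on day 8 against 507, 472 and 436 CPM on day 0 (-2.84 ± 0.29 SE, adjusted p = 1.2e-05). Myc had 21, 14.4 and 20.03 CPM on day 8 and 96.3, 176 and 143 CPM on day 0 (-2.9 ± 0.32 SE, adjusted p = 2.2e-05), with 76.4, 98 and 164 CPM on day 6. Mcm2, a subunit of the replication helicase, had 313, 420.4 and 580.2 CPM on day 8 and 1212, 1096 and 1024 CPM on day 0 (-1.34 ± 0.23 SE, adjusted p = 0.00045). Top2a, a topoisomerase of dividing cells, was not called, at 797, 1337 and 1245 CPM on day 8 and 1180.2, 1376 and 1246 CPM on day 0.

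The 20 genes chosen by the naming rule, which ranks fitted changes, hold several of the genes above. Beside Ednrb, Pax7, Neurog1, Nr2f1, Hoxb2, Hoxb5 and Hoxb5os, it named Nrxn3, a presynaptic adhesion protein, 2900092D14Rik and D930007P13Rik. Nrxn3 had 47.7, 15.6 and 14.2 CPM on day 8 and 0 counts on day 0, at least 229-fold higher (adjusted p = 0.0024), while the other 2 were at least 366-fold and 337-fold higher. Beside Gdf3 and Mael, the lower genes it named included Khdc3, an oocyte and early embryo protein, with 0 counts on day 8 and 57.1, 16.7 and 14.3 CPM on day 0, at least 597-fold lower (adjusted p = 0.00023), and at least 253-fold without day 0 replicate 1. Platr10, a noncoding RNA named for its link to pluripotency, had 2 counts on day 8 and 83.2, 80.1 and 89.8 CPM on day 0, lower by 2012-fold (95% counting interval 557 to 16625). Rbmxl2, a germ cell RNA-binding protein, had 2 counts on day 8 and 76.9, 53.4 and 63.5 CPM on day 0, lower by 1623-fold (95% counting interval 449 to 13407). The others, Psma8, Nkx6-3, Foxi3, 4930444M15Rik and Accsl, had 0 counts on day 8 and were at least 205-fold to at least 284-fold lower.

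Many markers of other germ layers and of fibroblasts were low or uneven, and the unevenness was mostly that of 1 library. Some endoderm genes, among them Sox17 and Foxa1 below, were instead higher than on day 0 in every day 8 library. Day 8 replicate 1 had 179 of the 12705 tested genes at 5 CPM or more and at least 4-fold above both other day 8 libraries, against 3 for replicate 2 and 0 for replicate 3. Among them were the embryonic globin genes Hba-x, at 10.1, 0 and 0 CPM, and Hbb-y, at 9.09, 0 and 0 CPM; both had 0 counts in every day 0 library. The endothelial cadherin Cdh5 had 18, 0.122 and 0.178 CPM on day 8 and 0 counts on day 0 and was not called (adjusted p = 0.055). Gata4, of heart and endoderm, had 113, 24.3 and 2.14 CPM on day 8 and 4.8, 2.53 and 10.7 CPM on day 0 and was not called (adjusted p = 0.093). Afp, of visceral endoderm and liver, had 7.61, 0 and 0.089 CPM and 0 counts. Day 6 replicate 1 held the same genes, with 17.4 CPM of Hba-x, 11.7 of Cdh5 and 131 of Gata4. Pou5f1 in day 8 replicate 1 was within the range of the other day 8 libraries. The part of this library in results for the genes above was not tested beyond leaving it out.

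In the mesoderm and cardiac list 6 of 18 genes fell and 0 rose (median -1.16). Its median was -0.41 and -0.72 without day 0 replicates 2 and 3, and -0.63 and -0.47 without day 8 replicates 2 and 3. The number of rises was 3 without day 8 replicate 2, 3 without day 8 replicate 3 and 2 without day 0 replicate 1. It was 3 by DESeq2 and 2 with library totals, with counts halved or with the 6 libraries alone, and the median was -0.64 with no filter. Myh6, a cardiac myosin, had 0.211, 0.122 and 0.178 CPM on day 8 and 18.1, 27.9 and 23.5 CPM on day 0 (-7.03 ± 0.55 SE, adjusted p = 1.6e-06). Bmp4 had 25.7, 5.07 and 7.57 CPM on day 8 and 167, 90.7 and 105 CPM on day 0 (-3.27 ± 0.81 SE, adjusted p = 0.0079, -4.25 without day 8 replicate 1). The blood and endothelium list had 1 of 14 higher and 2 lower (median -0.51). It had 0 rises without day 8 replicate 1 or day 0 replicate 1 or 2 and 2 without day 8 replicate 2 or 3, and 1 fall without day 8 replicate 2 or any single day 0 library. Its median turned positive, at 0.90 to 1.73, without day 8 replicate 2 or 3 or day 0 replicate 1 or 2, and was -2.22 without day 8 replicate 1, so no direction is given for it. Pecam1, of endothelium and ES cells alike, fell to 16.3, 2.32 and 0.178 CPM on day 8 against 93.1, 57.2 and 58.5 CPM on day 0 (-3.55 ± 1.19 SE, adjusted p = 0.033, -5.85 without day 8 replicate 1). Its call was lost without day 8 replicate 2 (adjusted p = 0.071) or any single day 0 library (adjusted p = 0.062 to 0.090), with library totals (0.074) and with no filter (0.11). In the endoderm list 8 of 21 rose and 2 fell (median 1.57). Among the rises, Foxa2 is also on the spinal cord and hindbrain list. Sox7, another of them, is also the gene that rose in the blood and endothelium list. Sox17 had 17, 16.4 and 9.79 CPM on day 8 and 0.24, 0.39 and 0.555 CPM on day 0 (5.31 ± 0.42 SE, adjusted p = 1.9e-06). Foxa1 had 16.1, 9.66 and 8.19 CPM on day 8 and 0.36, 0.195 and 0.37 CPM on day 0 (5.15 ± 0.87 SE, adjusted p = 0.00051). Gata6 had 35.8, 6.97 and 2.14 CPM on day 8 and 0.30, 0.974 and 2.22 CPM on day 0 (3.86 ± 1.20 SE, adjusted p = 0.024) but 2.16 without day 8 replicate 1 (adjusted p = 0.083). Its call was also lost without day 0 replicate 1 or 2 (adjusted p = 0.082 and 0.080) and with no filter (0.073). The median was 1.02 without day 8 replicate 1 and 2.75 without day 0 replicate 1, and the 2 falls were 4 without day 8 replicate 1 and 1 without day 8 replicate 2 or day 0 replicate 1 or 3. The 8 rises were 4 without day 8 replicate 1, 4 without day 0 replicate 2 and 5 without day 0 replicate 1. Of the 8, 7 had a higher mean on day 6 than on day 8, against 20.9% of all genes that rose. In the trophoblast list 4 of 8 fell and 1 rose, with 0 rises without day 8 replicate 3 or day 0 replicate 1 or 3 and 2 falls without day 8 replicate 2 or 3 or day 0 replicate 1 or 2. The trophoblast gene that rose is also on the spinal cord and hindbrain list. Tfap2c had 15.4, 19.5 and 7.21 CPM on day 8 against 123, 57.5 and 51.5 CPM on day 0 (-2.47 ± 0.62 SE, adjusted p = 0.0077).

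Fibroblast and feeder genes summed to 838 to 1679 CPM on day 8 and 1359.6 to 2158 CPM on day 0, ranges that overlap. Of 20 tested, 3 rose and 5 fell (median -0.97), beside 25.2% and 22.8% of all genes tested. Thy1, a surface marker of fibroblasts, had 0.211, 0.122 and 0.623 CPM on day 8 and 8.16, 6.82 and 3.7 CPM on day 0 (-4.19 ± 1.09 SE, adjusted p = 0.0069, -5.18 without day 8 replicate 3). Col3a1, a fibrillar collagen, had 224, 8.07 and 17.2 CPM on day 8 and 1.08, 6.62 and 0.741 CPM on day 0 (4.83 ± 1.58 SE, adjusted p = 0.029) but 2.14 without day 8 replicate 1 (adjusted p = 0.18). Its call was also lost without day 0 replicate 1 or 3 (adjusted p = 0.098 and 0.093) and with no filter (0.11). Without day 8 replicate 1 the list had 0 rises and 9 falls, without day 0 replicate 1 or 3 it had 0 rises, and without day 8 replicate 3 it had 3 falls. Its median was 0.16 without day 0 replicate 2, -1.69 without day 8 replicate 1 and -0.20 with counts halved, so it has no steady direction. The defining fibroblast genes Lum and Dcn were at or below 1.36 CPM in every library of both days, and Col1a1 was highest in day 0 replicate 2 among day 0 libraries, at 71.9 CPM against 11.2 and 13.7.

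**Figure D5:**
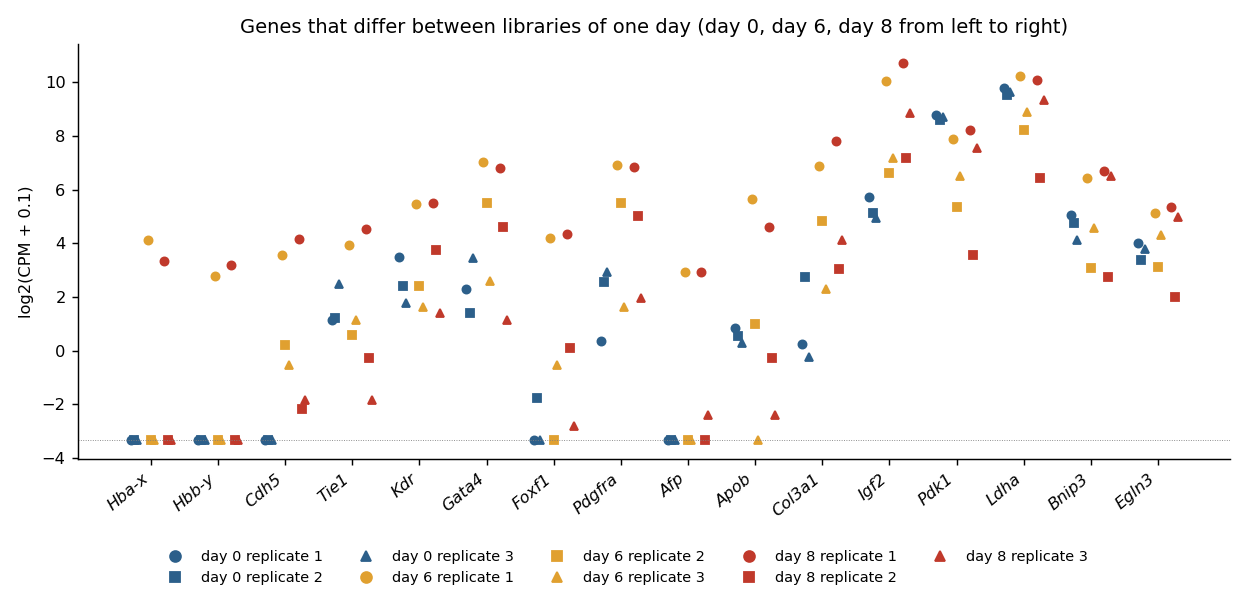
Levels of genes that differ between libraries of 1 day, as log2(CPM + 0.1), with day 0, day 6 and day 8 from left to right for each gene and a symbol for each library. Day 8 replicate 1 is the highest day 8 library for the blood, endothelium, mesoderm and endoderm genes and Col3a1, and day 8 replicate 2 is the lowest for Pdk1 (11.9 CPM), Ldha (85.6 CPM), Bnip3 and Egln3.

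Glycolysis and hypoxia genes separated the day 8 libraries in another way. Of 15 tested 2 rose and 2 fell, with a median of 0.01. The rises were 1 without day 0 replicate 3, and the falls were 1 without day 8 replicate 1 or 2 or any single day 0 library and with no filter. The median lay between -0.47 and 0.42 when 1 library was left out, so the list has no direction. Pdk1, a kinase that diverts pyruvate from mitochondria and responds to hypoxia, had 296, 11.9 and 188 CPM on day 8 and 437, 391 and 419 CPM on day 0 and was not called. Ldha, lactate dehydrogenase, had 1092, 85.6 and 656 CPM on day 8 and 894, 738 and 804 CPM on day 0 and was not called. In both genes day 8 replicate 2 was far below the other libraries of both days. Vegfa, the hypoxia-responsive vascular growth factor, rose, with 299, 43.2 and 141 CPM on day 8 and 16.9, 30.2 and 30.6 CPM on day 0 (2.65 ± 0.65 SE, adjusted p = 0.0074, 1.85 without day 8 replicate 1). Hk2 fell to 507, 186 and 709 CPM on day 8 against 1582, 1539.5 and 1495 CPM on day 0 (-1.72 ± 0.43 SE, adjusted p = 0.0076).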

How the data were processed

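Gene expression was measured as raw read counts per gene, deposited by the authors in 1 table for the CBX7-CaPS-R neural course, per the file headers. The submitters' processing notes name cutadapt 1.14, STAR 2.7.0, featureCounts 1.6.3, edgeR, HOMER 4.10.4 and the build mm10. Which program made which value, and the strand setting, are not given in the sources used here. The table holds 20953 rows, of which a partial last row and 22 gene names turned into dates were left out. Even numbers made up 66.5% to 81.5% of counts between 1 and 20, so both mates of a read pair may have been counted, and counting intervals may be too narrow.

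Rn45s was removed before library sizes were taken, and filterByExpr (minimum count 10, minimum total 15) set which genes were tested. One edgeR 4.0.16 model (TMM, robust quasi-likelihood, common dispersion 0.12; limma 3.58.1, R 4.3.3) covered the 9 libraries of days 0, 6 and 8. Day 8 was compared with day 0 by the two-sided quasi-likelihood F test, with p adjusted by Benjamini and Hochberg over 12705 genes. The standard error (SE) is the unshrunk log2 ratio over the square root of F. Where a day had 0 counts, folds are bounds against 3 counts over its 3 libraries. Where it had 1 to 3 counts, ratios have exact 95% intervals. Both cover counting error only. The script was tested on simulated data.

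The samples, gene lists and tests were chosen with earlier results of these data known. Named are the 10 highest and 10 lowest called genes with a mean of at least 10 CPM and no overlap between days, up to 4 called members per list with the largest change and at least 5 CPM, and a fixed set around Polycomb, pluripotency and neural genes. Further members were named as examples after their values were seen. Some genes that this rule names are not reported here, though list counts include them. Replicate numbers did not pair day 8 with day 0 libraries. Alternatives were DESeq2 1.42.0, library totals, no filter, Rn45s kept, counts halved, 6 libraries only, a replicate block, a minimum change and each library left out. Leaving out Lars2 and Mir6236 with Rn45s was added after seeing the data.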

Additional observations from a re-analysis of the deposited data

How the results depend on the processing

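The numbers of genes higher and lower on day 8 stayed within 1.5 times of 3196 and 2902 under all alternatives run. DESeq2 called 3424 and 3163, no filter on low counts gave 3143 and 2744, keeping Rn45s 3196 and 2900, halved counts 3182 and 2948, the 6 libraries alone 3501 and 3408, and a minimum change of 1 on the log2 scale 2611 and 1975. Library totals without TMM gave 3715 and 2024, a shift of the median of all genes by 0.246. With Lars2 and Mir6236 also left out, an alternative chosen after seeing the data, 3157 were higher and 3013 lower. Leaving out 1 library gave 2742 to 2885 higher and 2361 to 2566 lower. Of 141 named genes that were called, 122 were called with an adjusted p under each setting run and 3 more, Otx2, Lhx2 and Taf7l, wherever an adjusted p was given. Of the 141, 61 had a change that moved by over 1.5 times when 1 library was left out, 51 of them below 5 CPM on their lower day. The uncalled changes of Ezh2 (-0.182 without day 8 replicate 3, -0.0133 without day 0 replicate 1, range -0.182 to 0.260) and Rnf2 (-0.00256 without day 0 replicate 1, range -0.00256 to 0.317) reversed, and the cause was not tested. Olig2 was called by DESeq2 (adjusted p = 0.025), with halved counts (0.044) and with the 6 libraries (0.011), and Cbx6 with the 6 libraries (0.043). With no filter the median change was -0.99 for DNA methylation, 3.11 for dorsoventral factors and -0.21 for blood and endothelium, the neural crest list had 2 rises, and the blood list 1 fall. With library totals the medians were 0.45 for PRC1 and -0.19 for blood and endothelium, whose falls were 1. With the 6 libraries alone the blood median was -0.78 and the retinoic acid list had 2 falls, and with Lars2 and Mir6236 also left out the blood median was -0.25. DESeq2 gave no adjusted p for Otx2 and Pecam1. Libraries with the same replicate number on both days did not deviate together (correlations of 0.0731, -0.0392 and 0.019), so the numbers are not taken as pairs for this comparison. Libraries of day 6 and day 8 with the same number did deviate together (correlations of 0.397, 0.207 and 0.277, against -0.264 to -0.0013 for other numbers). With a replicate block 3156 genes were higher and 2931 lower, 3066 and 2787 of them shared with the fit without it, and Hoxa9 (adjusted p = 0.024) and Olig2 (0.010) were called while Col3a1, Emx2, Ppia, Sox7 and Tagln were not. With the block the mesoderm and cardiac list had 3 rises, the hypoxia and glycolysis list 4 falls, and the blood and endothelium median was -1.30. Depth was lowest in day 0 replicate 3 among the 6 libraries compared, at 6.29 M counts without Rn45s, or 5.40 M after TMM scaling. This depth limits what can be said of genes with few counts.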

Other observations

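Imprinted genes, which are expressed from 1 parental copy and many of which act on growth, rose at 13 of 24 genes tested and fell at 5, with a median of 0.97 against 0.029 over all genes tested. Plagl1, a zinc finger factor that acts on other imprinted genes, had 283, 385 and 304 CPM on day 8 and 2.46, 9.35 and 4.07 CPM on day 0 (5.94 ± 0.42 SE, adjusted p = 1.4e-06 by edgeR's quasi-likelihood test, 6.71 without day 0 replicate 2). Cdkn1c, which encodes the CDK inhibitor p57, had 989, 705 and 545 CPM on day 8 and 69.96, 65.8 and 131 CPM on day 0 (3.07 ± 0.45 SE, adjusted p = 0.00033). In both genes each day 8 library was above each day 0 library. Igf2, a fetal growth factor, had 1697, 144 and 461 CPM on day 8 and 52.9, 34.6 and 31.1 CPM on day 0 (4.27 ± 1.11 SE, adjusted p = 0.01, 2.94 without day 8 replicate 1; adjusted p = 0.054 with no filter). Dlk1 had 112, 14.8 and 29.6 CPM on day 8 and 5.4, 6.04 and 4.81 CPM on day 0 (3.24 ± 0.77 SE, adjusted p = 0.0066, 2.04 without day 8 replicate 1). Both were highest in day 8 replicate 1, the day 8 library with 179 genes at least 4-fold above both others. Phlda2, a gene that limits placental growth, fell to 0.423, 0.244 and 0.0445 CPM on day 8 against 19.7, 13 and 25.6 CPM on day 0 (-6.48 ± 0.72 SE, adjusted p = 2.1e-05, -5.86 without day 8 replicate 3). The 5 falls were 3 without day 8 replicate 2 or 3 or without any 1 of the day 0 libraries, and 3 with no filter on low counts.

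Among CDK inhibitors and p53 targets 5 of 19 rose and 9 fell, with a median of -0.86, beside 25.2% higher and 22.8% lower over all genes tested. The p53 target Perp, a membrane protein of cell junctions, had 2.11, 2.44 and 2.36 CPM on day 8 and 29, 37 and 32.2 CPM on day 0 (-3.82 ± 0.30 SE, adjusted p = 1.9e-06). Mdm2, which degrades p53, had 124, 141 and 119.9 CPM on day 8 and 269, 274 and 264 CPM on day 0 (-1.07 ± 0.16 SE, adjusted p = 0.00018). Cdkn2c, the inhibitor p18, rose, with 12, 7.7 and 5.12 CPM on day 8 and 0.60, 1.36 and 1.3 CPM on day 0 (2.95 ± 0.59 SE, adjusted p = 0.0015). Cdkn2a, a target of Polycomb and CBX7 in many cell types, fell to 1.27, 1.22 and 0.267 CPM on day 8 against 3.66, 7.69 and 8.89 CPM on day 0 (-2.89 ± 0.74 SE, adjusted p = 0.0065). Immediate early genes, which respond to growth factors and to handling, fell at 7 of 16 genes tested and rose at 2, with a median of -0.79, or -1.59 without day 8 replicate 1, -0.51 with counts halved and -0.50 with the 6 libraries alone. Nr4a1, an orphan nuclear receptor, had 7.4, 5.2 and 5.03 CPM on day 8 and 69.7, 48.2 and 31.1 CPM on day 0 (-3.09 ± 0.37 SE, adjusted p = 3.6e-05). Jun had 186, 177 and 144 CPM on day 8 and 31.9, 42.1 and 25.9 CPM on day 0 (2.34 ± 0.21 SE, adjusted p = 4.8e-06). Of 13 housekeeping genes 5 fell and 0 rose (median -0.29, and -0.18 without day 0 replicate 1). Actb, cytoplasmic actin, had 2563, 2845 and 2627 CPM on day 8 and 4845, 4728 and 4264 CPM on day 0 (-0.78 ± 0.17 SE, adjusted p = 0.0026). Gapdh and Ppia were also called lower, but their reads can be split with near-identical pseudogene copies. Gapdh lost its call with no filter and without each single library other than day 8 replicate 3 (adjusted p = 0.052 to 0.12). Ppia lost it without day 0 replicate 1 or day 8 replicate 1 or 3, with library totals, with no filter and with the 6 libraries alone (adjusted p = 0.050 to 0.37). The 5 falls were 2 without day 0 replicate 1, 3 without day 8 replicate 1, 3 without day 8 replicate 2 and 3 with no filter on low counts or with library totals in place of TMM scaling, where the median was -0.05. Of 14 genes listed for the 2-cell embryo, 7 were in the table and 0 had enough counts to be tested.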
